A study of Zea mays with 2182 samples.

Results

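In the anther of maize, 70 genes stood highest at lengths of 1.25 to 1.75 mm, and most of their transcripts sat in a minority of the cells sampled there. The members were chosen by these values, and those cells by the members' share of their UMIs. Among 21774 rows of the table that carry a gene ID (21635 starting Zm00001d, the rest GRMZM), unique molecular identifiers (UMIs, 1 per captured molecule) were summed over cells of 500 or more UMIs at each length and scaled to CPM, a common total for every length. Lengths were averaged in 4 windows, 0.5 to 1.0 mm, 1.25 to 1.75 mm, 2.0 to 2.25 mm and 2.5 to 3.0 mm, and 5 CPM were added. A member has its highest mean at 1.25 to 1.75 mm, at 50 or more, and at least 2.5 times the next window. The members are 0.321% of these rows; by the same thresholds 0.436% peaked at 0.5 to 1.0 mm, 0.276% at 2.0 to 2.25 mm and 0.592% at 2.5 to 3.0 mm.

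The study took anthers of the fertile inbred line W23, grown in a greenhouse with no treatment, at 11 lengths in steps of 0.25 mm, fixed and digested them, sorted single cells and counted transcript 3′ ends with CEL-Seq2. All cells share this genotype and differ in anther length. At least 2 plants gave anthers for each length, but the labels do not say which plant a cell is from, so the p-values below measure the spread between sums of cells, which may be technical. Of 2182 cells, 1589 entered the rule, 464 had fewer than 500 UMIs, and 5.91% of all were in columns that the rule leaves out.

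The maize anther holds 4 somatic layers around the cells that enter meiosis, among them the tapetum, which feeds the meiotic cells and the young pollen. Around meiosis the anther makes phased small interfering RNAs of 24 nucleotides: the microRNA miR2275 directs the cutting of long transcripts of 24PHAS loci, and a Dicer-like enzyme cuts the copied RNA into regular pieces. An earlier class of 21 nucleotides comes from 21PHAS loci. The table carries no name for any of the 70 members, and the reference table, which belongs to another assembly, matched 0 of their IDs. They are therefore given by ID, with no role, and no sequence is shown.

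Groups of cells with different titles stood apart. The first word or date of a cell title is called a set here, and a set with its number and length a pool. The titles do not say what that number stands for. Cells at 1.25 to 1.75 mm came from sets 1.4.21 (79 cells), 3.29.22 (66 cells, none at 1.75 mm) and 8.18.21 (65.5% of the 420 cells). In set 1.4.21 the members together stood at 2120, 5592 and 1321 CPM at 1.25, 1.5 and 1.75 mm. In set 3.29.22 they stood at 10218 and 14176 CPM at 1.25 and 1.5 mm, and in set 8.18.21 at 15928, 16353 and 13676 CPM at the 3 lengths. The 3 sums of set 1.4.21 were thus the lowest 3 of the 8. Outside the window that set reached 1387 CPM, at 2.0 mm, above its 1.75 mm value. At 1.5 mm its pool 2 stood at 7948 CPM and its pool 6 at 1020 CPM. In set 1.4.21 alone, 49 of the 70 members were highest at 1.25 to 1.75 mm and 25 reached 2.5 times the next window. In set 8.18.21 these were 70 and 67, and in set 3.29.22, with no cells below 1.25 mm, 63 and 55. In this order of sets, 22.2, 22.8 and 44.7% of ID rows of 50 CPM or more in a window were highest there. The share of those rows that reached 2.5 times was not counted. The rule used these cells, most of those in the window from set 8.18.21, so nothing is read from these counts. Without set 1.4.21 the rule took 89 genes, 68 of them members, and without set 8.18.21 it took 73 genes, of which only 28 were members. Pools also share well numbers: 81 of the 88 well numbers used at these lengths occur in at least 2 of the 14 pools.

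Summed over all members and sets, the level was 13217, 12710 and 9821 CPM at the 3 lengths (95% Poisson interval at 1.25 mm 12734 to 13714), or 1.32, 1.27 and 0.982% of all UMIs. In each of the 3 sets the members were highest at 1.5 mm, so the order of 1.25 and 1.5 mm in the pooled sums is not that of the sets. At the other 8 lengths the pooled level lay between 523.7 CPM at 3.0 mm and 1800 CPM at 2.0 mm. Intervals here and below cover counting error only. Between 171595 and 225645 UMIs stood behind each sum at 1.25 to 1.75 mm.

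**Figure D1:**
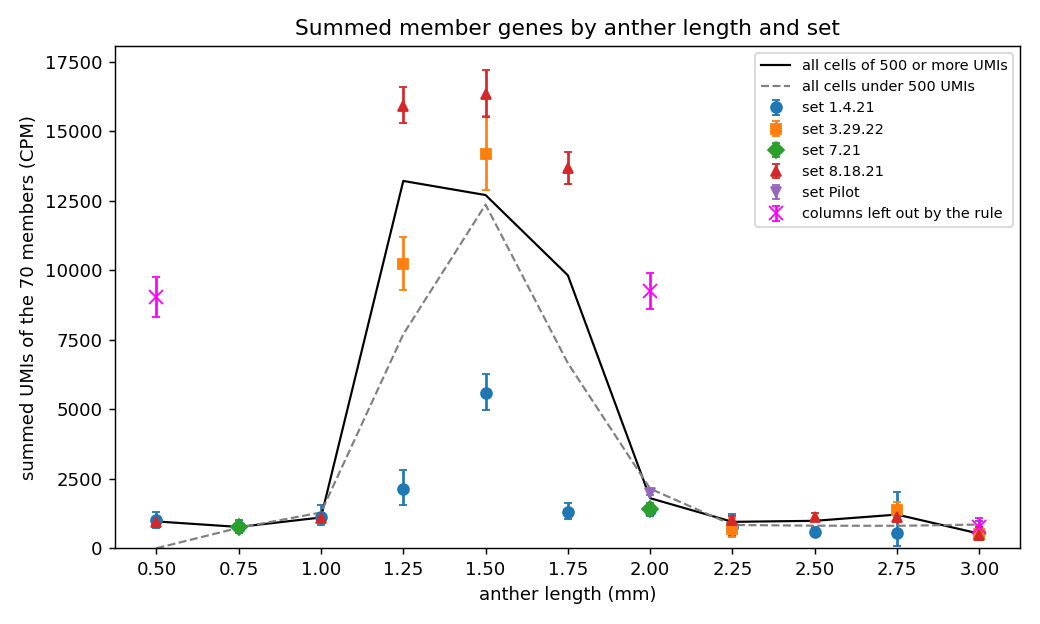
Summed UMIs of the 70 members (CPM) against anther length (mm). Points are sets with 95% Poisson intervals, the solid line all cells of 500 or more UMIs, the dashed line all cells under 500 UMIs, and crosses the columns that the rule leaves out; the 3 points of set 1.4.21 at 1.25 to 1.75 mm lie at 1321 to 5592 CPM, below those of the other sets.

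In the pooled sums 36 of the 70 members were highest of all 11 lengths at 1.25 mm, 18 at 1.5 mm and 16 at 1.75 mm. The sets taken alone differed in this: within the window, 33 members were highest at 1.25 mm, 19 at 1.5 mm and 18 at 1.75 mm in set 8.18.21, against 19, 42 and 5 in set 1.4.21, and 20 at 1.25 mm and 47 at 1.5 mm in set 3.29.22, which has no cells at 1.75 mm; members tied or at 0 are not counted. For 56 members all 3 lengths lay above the other 8, as they did for 2.44% of the 5894 ID rows that reach 50 CPM in some window; the rule used these sums, so nothing is read from the difference. The next highest window was 2.0 to 2.25 mm for 29 members, 0.5 to 1.0 mm for 27 and 2.5 to 3.0 mm for 14. In the cells the rule used, 24 members had no UMI before 1.25 mm; of these, 22 had one in the left-out pool labelled 0.5 mm and 1 in cells under 500 UMIs. Outside 1.25 to 1.75 mm 7 members had 0 of 3136356 UMIs in the cells the rule used, which allows a level of up to 0.957 CPM over those lengths there; 6 of the 7 had a UMI in the left-out columns.

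**Figure D2:**
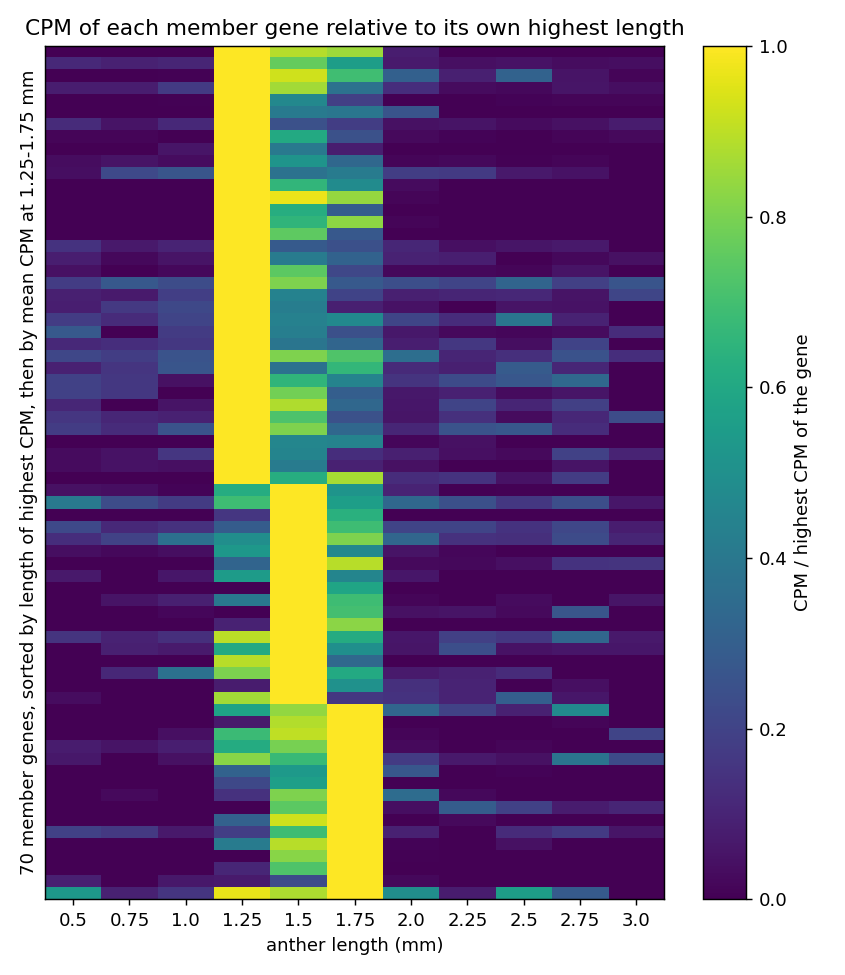
Each of the 70 members (rows) by anther length in mm (columns), as CPM divided by the gene's own highest CPM, pooled over sets and sorted by the length of that highest value. The sorting puts the 36 members highest at 1.25 mm, the 18 at 1.5 mm and the 16 at 1.75 mm in 3 steps, which depend on the pooling of sets, and values at other lengths are mostly near 0.

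Levels ranged from 46.6 to 688.6 CPM as means of the 3 lengths, with a median of 128.9 CPM, and the 8 highest members held 35.4% of the members' UMIs. The values that follow are CPM of sums, which chose the genes, and are given without a test. Zm00001d003404 was highest, at 753.0, 670.2 and 642.6 CPM at 1.25, 1.5 and 1.75 mm (mean 688.6 ± 57.5, SD of 3 lengths), with 0 UMIs at 0.5 to 1.0 mm and from 2.25 mm on. Its only other signal was 59.9 CPM at 2.0 mm. There it stood at 68.3 CPM in set Pilot (65 UMIs), 54.3 CPM in set 7.21 (20 UMIs) and 0 in set 1.4.21. Zm00001d003405, whose ID is the next number, stood at 640.8, 262.2 and 252.6 CPM (385.2 ± 221.4) and at 166.3 CPM at 2.0 mm. At 2.0 mm it had 231.1 CPM in set Pilot (220 UMIs), 38.0 CPM in set 7.21 (14 UMIs) and 20.2 CPM in set 1.4.21 (2 UMIs). Whether reads could be shared by such neighbouring IDs, among them also Zm00001d031138, Zm00001d031139 and Zm00001d031141, was not tested.

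Zm00001d011121 stood at 860.6, 658.5 and 478.6 CPM (665.9 ± 191.1), against 77.6 to 99.6 CPM at 0.5 to 1.0 mm. Zm00001d020794 stood at 748.3, 693.5 and 518.5 CPM (653.4 ± 120.03) after 0 to 4.08 CPM at 0.5 to 1.0 mm, and was still at 228.2 and 234.6 CPM at 2.0 and 2.5 mm. Zm00001d044421 was at 790.4, 681.8 and 296.9 CPM (589.7 ± 259.3). These 3 genes were all lowest of the window at 1.75 mm. Zm00001d018509 had the opposite order, at 355.5, 512.8 and 611.6 CPM (493.3 ± 129.2), and 202.9 CPM were left at 2.0 mm, with 290.3 CPM at 2.75 mm. Zm00001d017724 stood at 823.2, 384.6 and 155.1 CPM (454.3 ± 339.4) and at no more than 10.3 CPM elsewhere. Zm00001d026080 was highest at 1.5 mm, with 238.5, 384.6 and 199.4 CPM (274.2 ± 97.6).

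The ratio to the next window, with 5 CPM added to both, had a median of 4.79. It was largest for Zm00001d031139 (43.5), which stood at 56.1, 355.5 and 226.02 CPM and had 0 UMIs at every other length. Zm00001d048906 followed (40.6), at 28.1, 361.3 and 407.7 CPM with 1 UMI each at 2.0 and 2.75 mm. Zm00001d007714 (32.0), Zm00001d017724 (31.8) and Zm00001d044652 (31.4) had the opposite order in the window; Zm00001d007714 went from 243.2 to 151.5 to 70.9 CPM and Zm00001d044652 from 224.5 to 169.003 to 62.0 CPM. At the limit of 2.5 times, Zm00001d024540 (2.51) and Zm00001d038377 (2.52) were just inside, and Zm00001d031530 (2.42) and Zm00001d044620 (2.40) just outside. At the floor of 50, Zm00001d013979 (51.6 with the 5 added) and Zm00001d024600 (54.3) were just inside, and Zm00001d024179 and Zm00001d039635 (both 47.0) just outside.

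Rows that the rule does not take included transcripts of the phased small RNA pathway that also peaked at 1.25 to 1.75 mm. Of 75 rows of 24PHAS loci, 31 met the same thresholds, and these 31 summed to 1651, 6661 and 6311 CPM at 1.25, 1.5 and 1.75 mm and to 19.4 CPM or less elsewhere. All 75 together stood at 1908, 7599 and 7463 CPM in the window and at 48.5 CPM or less elsewhere. Of 10 microRNA precursor rows, zma-MIR2275c met them with 247.9, 110.7 and 31.0 CPM, and zma-MIR159h, a precursor of miR159, which in Arabidopsis represses GAMYB transcription factors, with 0, 64.1 and 88.6 CPM. No row with a gene symbol and no 21PHAS row did. By set, all 24PHAS rows were highest at 1.5 mm in sets 1.4.21 (3914 CPM) and 3.29.22 (6958 CPM) and at 1.75 mm in set 8.18.21 (10842 CPM), and zma-MIR2275c was highest at 1.25 mm in set 8.18.21 (310.2 CPM) and at 1.5 mm in sets 1.4.21 (19.3 CPM) and 3.29.22 (422.7 CPM). These orders were not tested.

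A measure outside the rule was the 464 cells of fewer than 500 UMIs, which come from the same anthers and sets. There the members together reached 7700 CPM (95% Poisson interval 6652 to 8866), 12366 CPM (10965 to 13897) and 6659 CPM (5606 to 7854) at the 3 lengths of the window. At the other lengths they stood between 0 CPM at 0.5 mm, where the 8 cells held 2767 UMIs, and 2142 CPM at 2.0 mm. Each of the 70 members had a UMI in these cells, and 63 had their highest window at 1.25 to 1.75 mm. That window was highest for 25.3% of the 5894 ID rows of 50 CPM or more in a window, which include 68 of the members.

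In the test of 1.25 to 1.75 mm against the mean of the other windows, over 11 sums of these cells, 1 per length, 19 of 68 tested members were higher and 0 lower, by the quasi-likelihood test of edgeR, Benjamini-Hochberg adjusted over 5993 genes. Of all genes tested 0.501% were higher. The median log2 fold change was 2.90 for the members and 0.54 for all genes, and 67 of the 68 were above 0. The fold changes depend on few UMIs, and 12 of the 19 genes had no UMI in these cells outside the window, so their fitted fold changes are no bound. Zm00001d003404 had 5, 8 and 11 UMIs at the 3 lengths and 0 elsewhere (log2 fold change 5.65, SE 0.99, adjusted p = 9.12e-06 by edgeR). Zm00001d048906 had 0, 16 and 3 UMIs (5.33, SE 1.02), Zm00001d026080 4, 9 and 4 (5.15, SE 1.04), Zm00001d017724 7, 6 and 3 (5.06, SE 1.05) and Zm00001d027748 8, 6 and 1 (4.96, SE 1.06), each with 0 elsewhere. Their adjusted p by edgeR lay between 0.000115 and 0.00131. All 5 calls were lost in DESeq2, against 0.5 to 1.0 mm alone and against 2.0 to 2.25 mm alone, with adjusted p of 0.0736 or more, and held with set as a covariate.

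The number called depended on the fit. DESeq2 called 1 member higher (0.0334% of all genes), and against 2.0 to 2.25 mm alone edgeR called 0, with 27 of the 68 at an unadjusted p under 0.05 (4.37% of all genes). Sets differ between lengths; with sums per set and length and set as a covariate, 21 members were higher (0.834% of all genes), the members' median log2 fold change was 2.05 in place of 2.90 and that of Zm00001d003404 4.08 in place of 5.65. Leaving out 1.5 mm left 5 members higher; leaving out 0.75 or 1.0 mm left 9 each, 2.25 mm 10, 3.0 mm 11, and 1.25 or 1.75 mm 12 each, while 0.167 to 0.451% of all genes were higher when single lengths were left out. Without set 1.4.21, a fit added once the data had been seen, 21 of 67 tested members were higher (0.536% of all genes).

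Within the window, a minority of the cells carried most of the members' transcripts. Of 420 cells, 78 had members at 2% or more of their UMIs. These cells held 21.4% of all UMIs and 68.3% of the members' UMIs. The members' own share picked these cells, so holding more of the members' UMIs than of all UMIs is built in. After thinning every cell to 500 UMIs, the share of such cells was 22.6% at 1.25 mm (exact 95% interval 16.1 to 30.3, 21.2% before thinning), 20.3% at 1.5 mm (13.8 to 28.1, 20.3% before) and 15.6% at 1.75 mm (10.0 to 22.7, 14.2% before). Before thinning, set 1.4.21 had 0 of 18, 1 of 29 and 0 of 32 such cells at the 3 lengths. Set 3.29.22 had 6 of 38 at 1.25 mm and 6 of 28 at 1.5 mm. Set 8.18.21 had 25 of 90 at 1.25 mm, 20 of 76 at 1.5 mm and 20 cells at 1.75 mm. The intervals take the pooled cells as independent, so they leave out this spread between sets. Among the cells of other lengths that the rule used, 0 reached 2%. At 2.0 mm this allows a share of up to 0.896%, taken as 3 cells. In the left-out columns 4 of the 56 MiSeq cells at 2.0 mm and 1 of the 26 cells at 0.5 mm reached it. The highest cell had 8.22% at 1.5 mm and at 1.75 mm. No cells of these sums were left out by the thinning, since all had 500 UMIs or more.

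Cells of high member share held many members at once. A median of 27 members was detected per such cell (8 to 54), against 2 in the other cells, while the median depth was 1116.5 UMIs in the former and 1058 in the latter. The high share was built from these genes, so the contrast is a description; 25 cells lay between 1.5 and 2.5%. In these 78 cells lay over 50% of the UMIs of 61 members. Another 6 members had under 25% there: Zm00001d045940 (8.82%), Zm00001d042918 (10.0%), Zm00001d027309 (12.9%), Zm00001d010795 (14.3%), Zm00001d044691 (15.9%) and Zm00001d016921 (18.8%). These 6 were chosen for naming after their values were seen, and the 21.4% of all UMIs held by the same cells lies above each of their shares.

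**Figure D3:**
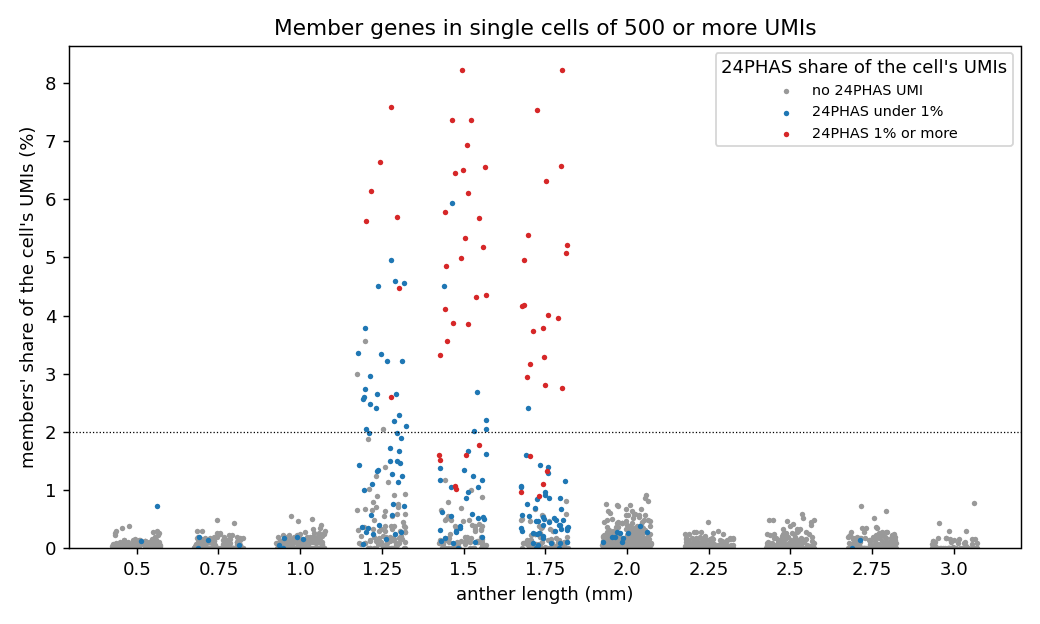
Share of the members in the UMIs of each cell of 500 or more UMIs (%), by anther length (mm); colours give the 24PHAS share of the cell's UMIs and the dotted line is 2%. Cells above 2% occur at 1.25, 1.5 and 1.75 mm, where they are 31, 27 and 20 cells.

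A second comparison was between cells of the same set and length, and used the same cells and UMIs as the rule. A cell was called 24PHAS-rich where 24PHAS rows made up 1% or more of its UMIs. There were 58 such cells of 420 at 1.25 to 1.75 mm, and 0 in the other windows among the cells the rule used. The left-out columns held 6 labelled 2.0 mm and 5 labelled 0.5 mm. They held 14.3% of all UMIs in the window and 47.9% of the members' UMIs, and 47 of the 58 had members at 2% or more. Of the 78 cells with such a member share, 3 had no 24PHAS UMI.

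Members stood higher in the 24PHAS-rich cells in each of the 5 sets and lengths with at least 3 cells of both kinds. In set 8.18.21 they stood at 56781 CPM in 6 rich cells against 13277 CPM in 84 others at 1.25 mm, at 44497 CPM (18 cells) against 6855 CPM (58) at 1.5 mm and at 37585 CPM (24) against 5155 CPM (85) at 1.75 mm. In set 3.29.22 at 1.5 mm they stood at 56915 CPM (4 cells) against 8001 CPM (24). In set 1.4.21 at 1.5 mm, the only length of that set with rich cells, they stood at 16652 CPM (5 cells) against 2920 CPM (24). The ratio lay between 4.28 and 7.29. Median UMIs per cell were 908 to 1878 in rich cells and 798.5 to 1320.5 in the others.

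Of 68 tested members, 47 were higher in 24PHAS-rich cells and 1 was lower, by the same edgeR test with set and length as a block, Benjamini-Hochberg adjusted over 4350 genes. Of all genes tested 2.34% were higher and 6.51% lower. The members were chosen from sums over these same cells, and rich cells occurred in no other window among the cells the rule used. A gene carried by rich cells meets the rule more readily. The excess over all genes is thus in part built in, and is given as a description. The median log2 fold change was 2.24 for the members and -0.43 for all genes; with library size alone for scaling these were 2.68 and -0.05, so that the members lay 2.67 and 2.73 above the median of all genes. Of the 47, 24 were higher in all 5 sets and lengths, 18 in 4 and 5 in 3, with log2 fold changes from 1.52 to 4.37. The same sums called these 47, and the share over all genes was not counted, so nothing is read from these counts. The 24PHAS rows chose the classes and were not tested.

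Zm00001d046158 had the largest change. It stood at 1244 against 29.4 CPM at 1.25 mm, 802 against 30.1 CPM at 1.5 mm and 1201 against 43.7 CPM at 1.75 mm in set 8.18.21, and at 99.1 against 0 CPM in set 1.4.21. Set 3.29.22 went the other way, with 0 against 37.2 CPM (log2 fold change 4.37, SE 0.61, higher in 4 of 5, adjusted p = 4.11e-09 by edgeR). Zm00001d022075 followed with 4.00 (SE 0.63, 5 of 5), Zm00001d016620 with 3.77 (SE 0.58, 5 of 5), Zm00001d005980 with 3.61 (SE 0.55, 4 of 5, with 0 UMIs on both sides in the fifth) and Zm00001d048906 with 3.56 (SE 0.56, 5 of 5). Each of the 4 had an edgeR adjusted p of 1.8e-07 or less. At 1.75 mm in set 8.18.21 Zm00001d048906 stood at 1888 against 131.1 CPM and Zm00001d016620 at 1005 against 69.9 CPM.

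Not all members followed. Zm00001d042918 had 0 UMIs in all 58 rich cells and 30.1 to 148.8 CPM in the other cells of 4 sets and lengths (log2 fold change -4.92, SE 1.54, adjusted p = 0.023 by edgeR). That call was lost in 10 of 17 alternatives, with an adjusted p of up to 0.348. The 20 tested members that did not pass had values between -2.59 and 1.87, of which 14 were above 0 and 6 below. Zm00001d020794, the third highest member by level, was one of them, with 0.11 (SE 0.45, adjusted p = 0.932 by edgeR). It stood at 655 to 887 CPM in the other cells and 883 to 1357 CPM in the rich cells of set 8.18.21. Another 2 members, Zm00001d013979 and Zm00001d024600, were below the 50 CPM that the test asked for.

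**Figure D4:**
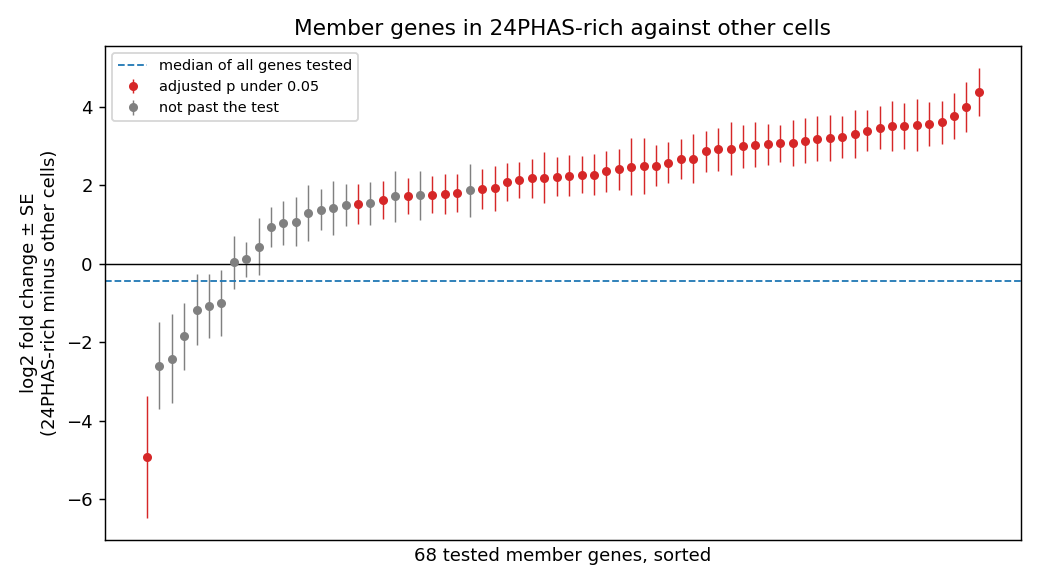
Log2 fold change (24PHAS-rich minus other cells) with its SE for the 68 tested members, sorted; red points pass edgeR's quasi-likelihood test at an adjusted p under 0.05 and the dashed line is the median of all genes tested. The 47 members called higher lie between 1.52 and 4.37, and 1 called lower lies at -4.92.

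Of the rows with names, both microRNA precursors were higher in 24PHAS-rich cells, zma-MIR2275c with a log2 fold change of 2.53 (SE 0.57, 5 of 5) and zma-MIR159h with 2.96 (SE 0.71, 4 of 5), with edgeR adjusted p of 0.0006 and 0.0015. SGS3, a protein of phased small RNA formation, had -0.46 (SE 0.46) and did not pass. DCL5 and the 9 tapetum markers listed have no row under their symbols, and of 14 germinal and meiotic markers only RAD51B and MAD2 have one, at 16.7 and 42.8 CPM, under the 50 CPM tested. Of 3 epidermis markers only CR4 has a row, at 12.9 CPM. The cells were therefore given no type. Of 4 photosynthesis genes, 3 were lower in rich cells: CAB1, a chlorophyll-binding protein (log2 fold change -2.77, SE 0.54), RBCS, the Rubisco small subunit (-2.90, SE 0.68), and PSBQ1, of photosystem II (-1.77, SE 0.61). C2, chalcone synthase of the flavonoid pathway, was also lower (-2.47, SE 0.53). Of 5 tested genes of DNA replication and chromatin, DMT105 (-3.14, SE 0.89), ROA2 (-3.07, SE 0.86) and MNB1B (-1.78, SE 0.47) were lower, and FEN1 and HMGIY2 did not pass. Each of these 7 lower genes was lower in all 5 sets and lengths, with an edgeR adjusted p between 3.52e-05 and 0.0433. They also had negative fold changes with library size alone, with RLE size factors and in DESeq2; the PSBQ1 call was lost with library size alone (adjusted p = 0.0762 by edgeR) and in DESeq2 (0.0997), and the ROA2 call in DESeq2 (0.0523), which gave DMT105 no adjusted p.

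Well numbers recurred among rich cells. Of the 46 well numbers with a 24PHAS-rich cell, 10 had one in at least 2 pools, and these held 22 of the 58 rich cells. In these wells the members stood at 33102 CPM in rich cells and 11893 CPM in the others. Outside them the values were 44583 CPM in 36 rich cells and 6274 CPM in the others. Without these wells, a fit added once the data had been seen, edgeR called 43 members higher and 0 lower, with 2.02% of all genes higher and 10.1% lower.

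In cells with no 24PHAS UMI the members stood at 3861, 2101 and 1374 CPM at 1.25, 1.5 and 1.75 mm. In cells with a share under 1% they stood at 19783, 12188 and 6881 CPM, and in rich cells at 52331, 38108 and 37585 CPM. At 1.25 mm the 50 cells with a share under 1% held 65.9% of the members' UMIs and the 7 rich cells 19.1%. At 1.5 and 1.75 mm the rich cells held 63.6 and 69.2%. In the 21 cells with a zma-MIR2275c UMI at 1.25 mm the members stood at 27860 CPM, against 9029 CPM in the rest of the 1.25 mm cells. The median depth was 1432 UMIs in the former and 1035 in the latter.

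**Figure D5:**
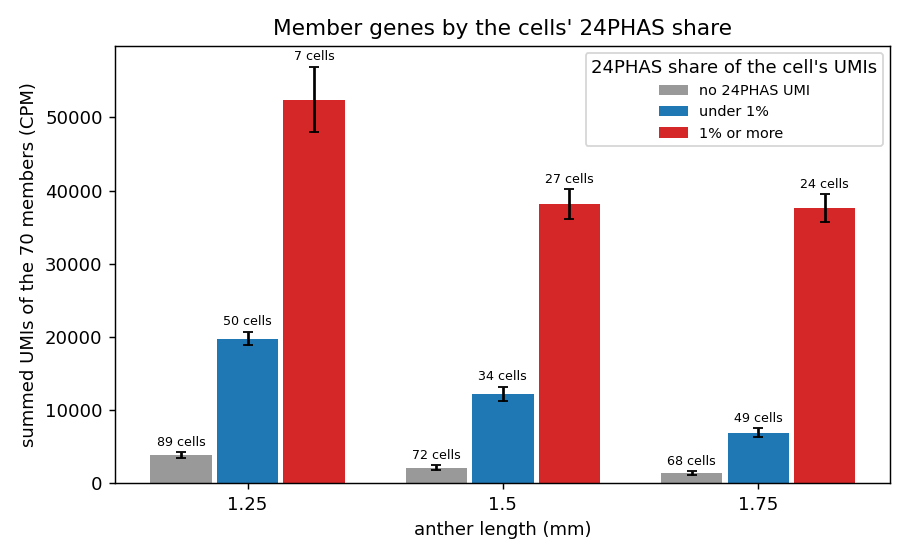
Summed UMIs of the 70 members (CPM, bars with 95% Poisson intervals) at 3 anther lengths (mm), in cells grouped by the share of 24PHAS rows in their UMIs and pooled over sets, with the number of cells above each bar. At each length the members are highest in cells of 1% or more, and at 1.25 mm 50 cells under 1% stand at 19783 CPM.

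The last comparison asked whether members differed in course from 1.25 to 1.75 mm. Over 8 sums of set and length with set as a block, 0 of 68 tested members passed edgeR's quasi-likelihood test of the slope, and 0.388% of all 4380 genes did. At an unadjusted p under 0.05 there were 24 members, 12 with a positive and 12 with a negative slope, and 8.17% of all genes; DESeq2 called 0 members, with 9 at an unadjusted p under 0.05 and 3.47% of all genes. In log2 units per mm, the members' median slope was -0.24 and that of all genes 0.08, with 32 members above 0 and 36 below. When 24PHAS-rich cells were left out, 4 members passed as falling, as did 0.137% of all genes: Zm00001d020944 (-6.99, SE 1.30), Zm00001d051905 (-6.43, SE 1.45), Zm00001d017724 (-5.39, SE 1.15) and Zm00001d028749 (-4.87, SE 1.11), with edgeR adjusted p from 0.0126 to 0.0479. They are named for this result after it was seen. Rich cells held 19.1% of the members' UMIs at 1.25 mm and 69.2% at 1.75 mm. What leaving them out does to the slope of a single gene was not tested. In all cells the 4 genes had slopes of -4.96, -2.01, -3.32 and -4.45, in the same order. Without rich cells the members' median slope was -1.58 and that of all genes 0.11. No course of the 4 genes is read from that fit. Without set 1.4.21, also chosen after the data were seen, 0 members passed in all cells, with 34 at an unadjusted p under 0.05 by edgeR and 6.21% of all genes.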

How the data were processed

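The deposited file is a single table of raw UMI counts, for 22173 rows and 2182 cells. The submitters' processing notes name HISAT2 and B73 RefGen_v4. Not given in the sources used here were the counting tool, its strand setting and any filter. Lengths, sets and wells were read from the cell titles. As cells are no replicates, their counts were summed, and scaled to CPM without further factors. Tests used edgeR 4.0.16 in R 4.3.3 (TMM factors, quasi-likelihood F-test, Benjamini-Hochberg at 0.05) on genes of 50 or more CPM, with SE taken from the fold change and its F statistic; DESeq2 1.42.0 was an alternative, and the fits were tested on simulated data. Cells were sorted singly and no doublet caller was run. The 3 column groups left out (a MiSeq set, 1 pool of 0.5 mm and 1 pool of 3.0 mm) follow the rule. The members and lists were chosen with earlier results of these data known. Genes were named by a rule: the 8 highest, the 5 of largest ratio, those beside each limit, the 5 largest changes each way in the 24PHAS test, the 5 largest in the window test, 3 each way of the slope, and rows outside the rule that met its thresholds. Replicate numbers follow accession order and pair no cells. Of per-sample columns, 0 were left unmapped.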

Additional observations from a re-analysis of the deposited data

Results flagged for a closer look

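In 2 of the 3 groups of columns that the rule leaves out, the members stood above the other cells of their length. The 56 cells of set MiSeq at 2.0 mm had them at 9253 CPM (95% Poisson interval 8624 to 9915), against 1803 CPM in the rest of the 2.0 mm cells, and 24PHAS rows at 12982 against 16.8 CPM; 62 members were higher there, as were 29.9% of the ID rows of 50 CPM or more in a window, and 1 cell of 11526 UMIs held 42.3% of the members' UMIs. The 26 cells of pool 7 of set 8.18.21 at 0.5 mm had them at 9031 CPM (8334 to 9771), against 956.9 CPM in the rest of the 0.5 mm cells, and 24PHAS rows at 7178 against 16.9 CPM; 61 members were higher, as were 43.8% of those rows, and 1 cell of 20696 UMIs held 35.9%. The third group, 47 cells at 3.0 mm, stood at 775.1 CPM (533.5 to 1089), against 571.0 CPM (440.7 to 727.8). Whether the lengths given for the first 2 groups are right was not tested, so these values may not be of 2.0 and 0.5 mm anthers.

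Among 25 groups of values examined for 1 sample far from the others, 1 was found, and chance flags about 1 group in 20. Zm00001d003405 stood at 834 CPM in set 8.18.21 at 1.25 mm, while the other 7 sums of set and length lay between 0 and 390 CPM.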

How the results depend on the processing

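The number of members was within 1.5 times under all 26 alternatives to the rule (0.70 to 1.44 times the 70 genes, 62 to 87 genes when single lengths were left out), but without set 8.18.21 only 28 of the 70 were taken again. The count of members higher in 24PHAS-rich cells stayed within 1.5 times under all 18 alternatives. It ran from 32 to 55, with 0.718 to 12.8% of all genes higher. When a set and length was left out it was 32 to 49 (0.943 to 2.58% of all genes). Without the block it was 42 (1.77% of all genes). Without a block the slope test called 0 members and 0% of all genes. The cell titles give no pairing of cells. The window test, at 19 members (0.501% of all genes), was less stable. It called 9 with RLE size factors (0.284%), 1 with DESeq2 (0.0334%) and 2 with filterByExpr (2 members tested, 1.46%). Against 0.5 to 1.0 mm alone it called 2 (0.0667%), and against 2.0 to 2.25 mm alone 0 (0.0167%). In cells with no 24PHAS UMI, chosen after the data were seen, it called 1 of 49 tested (0.0674%). Without single lengths it called 5 to 15 (0.167 to 0.451%). The RLE factors moved the median of all genes there from 0.54 to 0.23. The slope test, at 0 members (0.388% of all genes in either direction), called 1 with library size alone (0.411%) and 1 without set 3.29.22 (0.228%). It called 4 without 24PHAS-rich cells (0.525%) and 0 to 1 without single sums (0.0685 to 0.548%). With filterByExpr and in cells with no 24PHAS UMI fewer members could be tested; otherwise the cause was not tested. Depth limits the members of lowest level, with as few as 29 UMIs at 1.25 to 1.75 mm.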
